A study of Homo sapiens with 6 samples.

Results

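The MCM genes of human cells, MCM2 to MCM10, were followed in T47D cells treated with GDC-0941. They were found as every probe set that the platform annotation assigns to only one of these genes, with current symbols taken through the Entrez identifier. This gave 21 of the 54613 probe sets that are not manufacturer's controls, and 9 of the 19775 genes that have a probe set of their own. MCM4 had 5 probe sets, MCM9 and MCM10 had 3 each, MCM5, MCM6, MCM7 and MCM8 had 2 each, and MCM2 and MCM3 had 1 each. No probe set named an MCM gene together with another gene.

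The line T47D was derived from a human breast carcinoma and is luminal and oestrogen receptor positive. The drug GDC-0941 blocks the class I PI3 kinases, through which growth factor receptors switch on AKT. One group was treated with GDC-0941 for 6 hours and measured on 3 arrays, and the control group, whose agent the labels give as none, was measured on 3 arrays. All 6 samples came from the same line, grown in DMEM with serum. Whether the controls were given solvent is not stated, so a difference may include a solvent effect. Whether the replicates were separate cultures is not stated either, so p-values measure only the variation among these samples, possibly technical. The labels give the dose as 1 mM, a unit that is uncertain because a micro sign may have been lost. Values are log2 RMA signals as deposited, a unit in which a difference of 1 is a 2-fold change. They are relative to the other transcripts of the array. In bulk RNA, fewer cells making a transcript and less transcript per cell cannot be told apart.

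Of 8 markers of luminal breast cells, all lay above the median level of 7.36, from 10.12 for TFF1 to 14.27 for GATA3 (mean of 6 arrays). After GDC-0941, 3 of the 8 were called lower, with log2 differences of -0.36 for TFF1, -0.23 for KRT8 and -0.21 for KRT18. Another 2 were called higher, with 0.53 for FOXA1 and 0.42 for PGR. Of 7 markers of other cells, 1 passed the test: COL1A1, at 10.97 after GDC-0941 and 10.40 in controls. Of these 7, 5 lay above the median level: COL1A1, PECAM1 at 9.43, VIM at 8.11, KRT5 at 8.04 and COL1A2 at 7.54. PTPRC and KRT14 lay below it, at 6.20 and 6.17. The summed linear signal of these 7 markers was 3504 to 3592 on the treated arrays and 2774 to 3024 on the controls. Each marker was read by its highest-mean probe set, and COL1A1 was the brightest of the 7. Other COL1A1 probe sets were split: 202310_s_at and 202311_s_at were called higher (0.30 and 0.34), while 202312_s_at and 217430_x_at did not pass (0.01 and -0.12). The other PECAM1 probe sets lay at 5.56 to 7.91. The part of either marker list in the results below was not tested.

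MCM2 to MCM7 are homologous AAA+ ATPases that assemble into the ring-shaped motor of the replicative helicase. ORC, CDC6 and CDT1 load this ring on DNA in G1, and in S phase CDC45 and the GINS complex turn it into the active CMG helicase that unwinds the fork. MCM8 and MCM9 are related ATPases that form a separate helicase used in homologous recombination. MCM10 shares the name but not the ATPase fold. It binds the CMG helicase and is needed to start unwinding. Transcription of many MCM genes rises towards S phase under E2F factors, which the RB proteins hold in check.

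After 6 hours of GDC-0941, the transcripts of all 6 subunits of the MCM2-7 ring and of MCM10 and MCM8 were lower, and those of MCM9 did not pass the test. Of the 13 probe sets of MCM2 to MCM7, 12 were called lower and none higher, and the median log2 difference of the 13 was -0.67. Over all probe sets, 9.89% were called lower and 8.88% higher (limma, adjusted p under 0.05). Of the 8 probe sets of MCM8, MCM9 and MCM10, 5 were called lower and none higher, and the 3 that did not pass were those of MCM9. On 18 of the 21 MCM probe sets the 3 treated arrays all lay below the 3 controls, as they did on 18.8% of all probe sets. With each gene read by its brightest probe set on average (its highest-mean probe set), the largest falls were in MCM6 (2.53-fold lower) and MCM10 (2.49-fold lower), and the smallest passing fall was in MCM8 (1.34-fold lower).

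**Figure D1:**
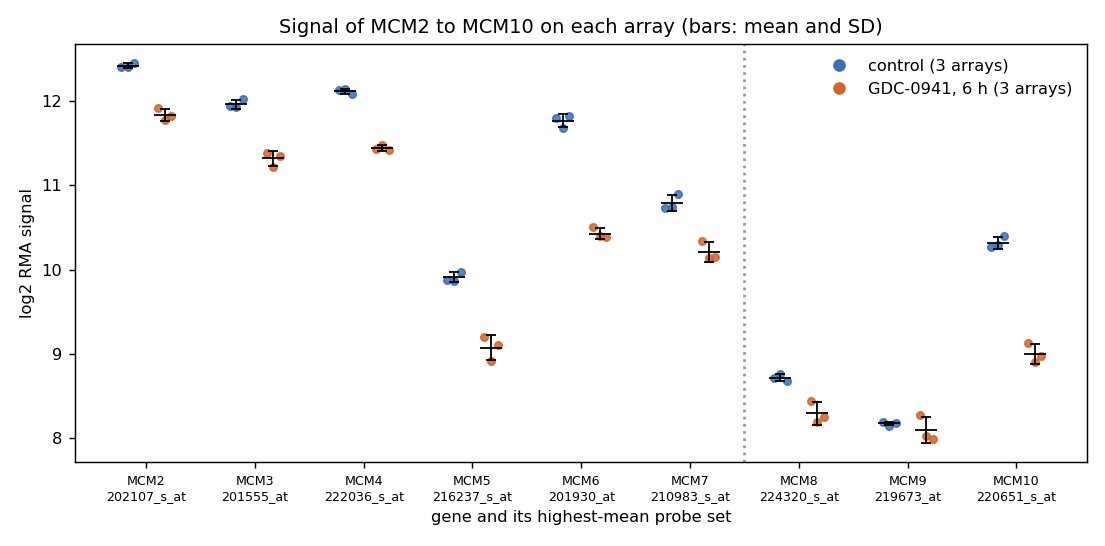
Log2 RMA signal on each array for the highest-mean probe set of each MCM gene, controls in blue and GDC-0941 in orange, with the mean and SD of 3 arrays. The groups are apart for 8 of the 9 genes and overlap for MCM9. Heights of different probe sets cannot be compared, as each has its own affinity.

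The promoter sequences of these genes are shown first. RefSeq (GRCh38.p14) promoter windows of 300 bases, from 250 before to 50 after a transcription start, were taken for 7 of the 9 genes. No window of MCM4 or MCM5 was among the member windows searched. The selection of member windows left out the chromosome that carries MCM4. The counts below therefore say nothing about the promoters of MCM4 or MCM5. The windows were searched on both strands for E2F-type words (TTCCCGC as well as TTGGCGC, and also TTCGCGC besides TTGCCGC) and for CCAAT, the core of the NF-Y box. An E2F-type word was present in a window of 5 of the 7 genes, MCM2, MCM3, MCM6, MCM7 and MCM8, and in 13.0% of all 35116 windows. CCAAT was present in a window of 6 of the 7 genes, all but MCM2, and in 34.6% of all windows. The 7 genes had 9 windows, so these counts by gene stand beside shares by single window. In the sequences below, chosen to set the gene with the largest fall (MCM6) and another subunit of the ring (MCM3) beside the 3 genes outside it, capitals mark E2F-type words and CCAAT or its complement ATTGG.
MCM6, chr2:135876394-135876693, minus strand: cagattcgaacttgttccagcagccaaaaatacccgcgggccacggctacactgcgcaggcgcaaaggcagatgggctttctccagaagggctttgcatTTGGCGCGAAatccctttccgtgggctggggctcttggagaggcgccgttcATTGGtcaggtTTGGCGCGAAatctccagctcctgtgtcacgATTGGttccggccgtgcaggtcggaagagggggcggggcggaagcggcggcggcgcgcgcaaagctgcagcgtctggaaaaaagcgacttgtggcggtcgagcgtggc
MCM3, chr6:52284693-52284992, minus strand: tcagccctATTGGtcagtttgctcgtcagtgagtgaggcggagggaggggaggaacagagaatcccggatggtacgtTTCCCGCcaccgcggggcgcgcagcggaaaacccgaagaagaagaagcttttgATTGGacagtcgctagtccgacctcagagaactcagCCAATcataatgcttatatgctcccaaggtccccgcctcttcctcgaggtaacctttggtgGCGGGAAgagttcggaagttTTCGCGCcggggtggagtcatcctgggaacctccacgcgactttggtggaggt
MCM8, chr20:5950402-5950701, plus strand: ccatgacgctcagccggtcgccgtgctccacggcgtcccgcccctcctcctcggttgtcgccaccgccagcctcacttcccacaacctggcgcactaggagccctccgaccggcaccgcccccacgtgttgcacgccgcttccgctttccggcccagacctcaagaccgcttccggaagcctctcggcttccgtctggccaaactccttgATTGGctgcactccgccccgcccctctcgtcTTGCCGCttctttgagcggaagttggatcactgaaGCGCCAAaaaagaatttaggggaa
MCM10, chr10:13161308-13161607, plus strand: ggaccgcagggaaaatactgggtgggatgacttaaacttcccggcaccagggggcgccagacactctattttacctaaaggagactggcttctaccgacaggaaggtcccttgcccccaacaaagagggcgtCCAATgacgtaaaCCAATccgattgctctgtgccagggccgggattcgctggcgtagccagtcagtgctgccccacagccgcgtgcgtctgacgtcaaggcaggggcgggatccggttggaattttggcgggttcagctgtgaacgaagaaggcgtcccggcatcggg
MCM9, chr6:118935110-118935409, minus strand: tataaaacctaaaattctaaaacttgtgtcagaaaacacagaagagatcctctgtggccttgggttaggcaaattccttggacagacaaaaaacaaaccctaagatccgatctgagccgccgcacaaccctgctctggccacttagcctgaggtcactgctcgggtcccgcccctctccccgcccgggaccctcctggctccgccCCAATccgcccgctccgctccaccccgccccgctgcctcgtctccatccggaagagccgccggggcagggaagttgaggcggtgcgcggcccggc

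The MCM6 window held the same overlapping pair of E2F-type words, TTGGCGCGAA, at 2 places, starting 151 and 89 bases before the transcription start. The MCM3 window held 3 separate words, the most of the MCM windows, starting 173, 23 and 3 bases before the start. The MCM8 window held a word starting 9 bases before the start and a word starting at base 27 after it. MCM2, whose sequence is not shown, had the overlapping pair TTCGCGCGAA from base 4 after the start. MCM7 has 3 windows for different starts, 2 of which held such words. None of the E2F-type words searched was found in the MCM10 window or in the MCM9 window. The FOXO-type word GTAAACA, present in 3.42% of all windows, was found in 2 of the MCM7 windows and in no window of the other genes searched. These 2 windows overlap and share a GTAAACA, so they are not separate finds of it. These matches describe the letters in the windows. They are not evidence that a factor binds there, and words outside the windows or with other letters were not searched.

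MCM6, the subunit of the ring that sits between MCM2 and MCM4, had 11.80, 11.68 and 11.82 on the controls and 10.50, 10.40 and 10.38 after GDC-0941 by probe set 201930_at. All treated arrays lay more than 1 below all controls. The log2 difference was -1.34 ± 0.07 (SE; 95% interval -1.48 to -1.19; limma adjusted p = 6.69e-07), the sixth largest fall among the 19775 genes. Its other probe set, 238977_at, lay at a dim 5.73 ± 0.09 in controls against 5.18 ± 0.06 (mean ± SD, n = 3 each), with a smaller fall of -0.56 ± 0.07 (SE; adjusted p = 0.000202). The direction of MCM6 thus rests on both probe sets, and its place ahead of the other subunits on the brighter one.

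MCM5, which closes the ring beside MCM2, had 9.88, 9.87 and 9.98 on the controls and 9.20, 8.91 and 9.10 after GDC-0941 by probe set 216237_s_at. The groups did not overlap, and the difference was -0.84 ± 0.08 (SE; adjusted p = 4.07e-05). Its second probe set, 201755_at, differed by -0.72 ± 0.07 (SE; adjusted p = 3.91e-05).

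MCM4, which forms a core of the ring with MCM6 and MCM7, had 12.13, 12.14 and 12.08 on the controls and 11.44, 11.48 and 11.42 after GDC-0941 by probe set 222036_s_at. The SD was 0.03 in both groups, which did not overlap, and the difference was -0.67 ± 0.06 (SE; adjusted p = 2.39e-05). Probe sets 212141_at, 212142_at and 222037_at fell by 0.74, 0.69 and 0.86 on the log2 scale. The fifth, 242479_s_at, had 7.65, 7.67 and 7.69 on the controls and 7.59, 7.48 and 7.47 after GDC-0941. Its treated arrays also lay below all controls, but the difference of -0.15 ± 0.06 (SE) did not pass (adjusted p = 0.110). Each array was also centred on its 18 hybridisation control probe sets, which read bacterial and phage transcripts added by the experimenter. These lie outside the cell's own RNA. Their values, like all others, had already been normalized across arrays by RMA, so the centring does not measure the RNA content of the cells. It moved the median difference of all probe sets from -0.01 to 0.16, and the difference of 242479_s_at to 0.02. The same probe set passed with array weights (adjusted p = 0.00819) and among probe sets above the median level (adjusted p = 0.0424). These settings called 16.3% and 21.5% of all their probe sets lower, against 9.89% in the main fit.

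MCM3, the partner of MCM5 in the ring, had 11.94, 11.93 and 12.02 on the controls and 11.39, 11.22 and 11.34 after GDC-0941. The difference was -0.64 ± 0.07 (SE; adjusted p = 6.77e-05). MCM2, a subunit that also binds histones, had 12.40, 12.40 and 12.45 on the controls and 11.92, 11.78 and 11.82 after GDC-0941. The difference was -0.58 ± 0.06 (SE; adjusted p = 9.02e-05). Both genes are read by a single probe set, and neither showed overlap between the groups.

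MCM7, which sits between MCM4 and MCM3, had 10.73, 10.74 and 10.90 on the controls and 10.34, 10.14 and 10.15 after GDC-0941 by probe set 210983_s_at. The difference was -0.58 ± 0.08 (SE; adjusted p = 0.000342). Probe set 208795_s_at gave -0.51 ± 0.08 (SE; adjusted p = 0.00116), the smallest fall among the 12 passing probe sets of the ring.

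MCM10 fell about as much as MCM6. Probe set 220651_s_at had 10.27, 10.29 and 10.39 on the controls and 9.13, 8.90 and 8.97 after GDC-0941. No treated array came within 1 of a control, and the difference was -1.32 ± 0.07 (SE; 95% interval -1.48 to -1.16; adjusted p = 1.48e-06), the seventh largest fall among the genes. The other probe sets, 222962_s_at and 223570_at, fell by 1.23 and 1.06 on the log2 scale, so all 3 showed at least a 2-fold decrease. Over all probe sets, 0.106% were called lower by that much.

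MCM8 had 8.72, 8.76 and 8.67 on the controls and 8.44, 8.19 and 8.25 after GDC-0941 by probe set 224320_s_at. The groups did not overlap, and the difference was -0.42 ± 0.07 (SE; adjusted p = 0.00201). Probe set 233560_x_at, which the manufacturer marks as open to cross-hybridisation, gave -0.44 ± 0.07 (SE; adjusted p = 0.00129). In the values centred on hybridisation controls, the first of these calls was lost (difference -0.25, adjusted p = 0.0558) and the second kept (-0.27, adjusted p = 0.0381).

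MCM9, the partner of MCM8, was the one gene of the family with no probe set past the threshold. Probe set 219673_at had 8.19, 8.15 and 8.18 on the controls and 8.28, 8.02 and 7.99 after GDC-0941. The treated arrays spread to both sides of the controls, and the difference was -0.08 ± 0.08 (SE; 95% interval -0.25 to 0.09; adjusted p = 0.584). Probe sets 213561_at and 1553759_at differed by 0.09 ± 0.09 and 0.09 ± 0.11 (SE), with intervals of -0.10 to 0.29 and -0.14 to 0.33. The third of these is dim, with a mean of 4.36 over the 6 arrays. None of the 3 intervals reached -0.42, the difference of MCM8. In the values centred on hybridisation controls, 213561_at and 1553759_at passed as higher, by 0.26 each (adjusted p = 0.0448 and 0.0465), while 219673_at was at 0.09 and did not pass. In those values 23.6% of all probe sets were called higher and 2.65% lower.

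**Figure D2:**
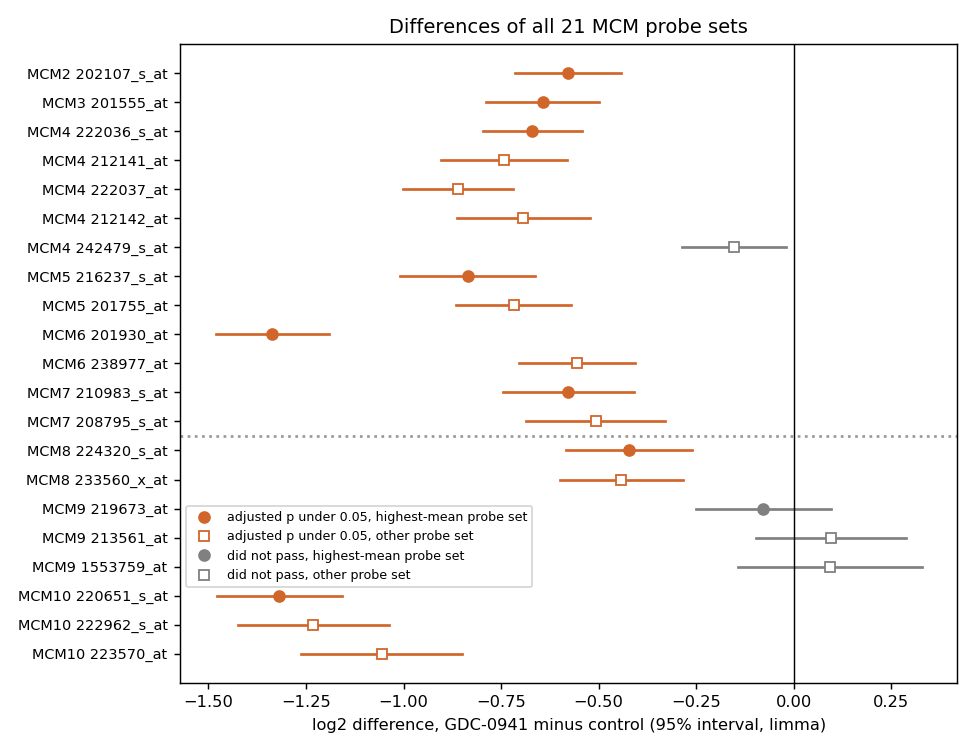
Log2 difference, GDC-0941 minus control, with its 95% interval for all 21 MCM probe sets, those of MCM2 to MCM7 above the dotted line. Orange marks an adjusted p under 0.05 and filled circles the highest-mean probe set. MCM6 and MCM10 lie farthest left at -1.34 and -1.32, and the 3 MCM9 intervals cross 0.

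Differences between members were taken within each array, by subtracting the log2 signal of one gene's highest-mean probe set from that of another and comparing the 3 treated with the 3 control values. In 29 of the 36 pairs these values did not overlap. The share of pairs apart in this way over all genes was not computed, so such counts are not read as particular to the family. An exact permutation test of 3 against 3 arrays (two-sided) cannot give a p below 0.1, which these pairs reached, or 0.124 after Benjamini-Hochberg adjustment over the 36 pairs. None of the pairs can therefore pass. MCM6 fell further than each of the other 5 subunits of the ring, by 0.50 more than MCM5 and by 0.76 more than MCM7, without overlap in any of the 5. Among those other subunits 4 of 10 pairs were apart, all but 1 of them with MCM5. MCM2 and MCM7 differed by less than 0.01 in their falls.

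MCM10 and MCM6 fell by amounts that differed by 0.02, with overlapping arrays (exact permutation p = 0.6). MCM10 was apart from the other 5 subunits of the ring. It fell by 0.90 more than MCM8 and by 1.24 more than MCM9. MCM8 fell less than each of the 6 subunits of the ring, by 0.16 against MCM7 and MCM2 up to 0.91 against MCM6, and all 6 pairs were apart. MCM9 was apart from all 6 as well, by 0.50 against MCM7 up to 1.26 against MCM6. MCM8 and MCM9, which act as one complex, were apart from each other by 0.34. These sizes also depend on how each probe set responds, as the 2 probe sets of MCM6 show.

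On the treated arrays, replicate 1 was the highest in 17 of the 21 MCM probe sets, and in 39.2% of all probe sets. Leaving that array out gave a median difference over the 21 of -0.67, against -0.64 with all arrays. Leaving out any of the 6 arrays left 12 probe sets of the ring and 5 of the others called lower. Over all probe sets, 7.20% to 9.84% were called lower in those fits.

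Against all genes, each by its highest-mean probe set, MCM2 to MCM7 and MCM10 lay among the 306 largest falls of 19775. MCM5 ranked 80, MCM4 183, MCM3 213, MCM2 305 and MCM7 306. MCM8 ranked 806 and MCM9 6566. The median over all genes was -0.02 and 13.6% of them were called lower, so the share of MCM genes called, 8 of 9, was above the background, though the family was proposed with earlier results of these data known.

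**Figure D3:**
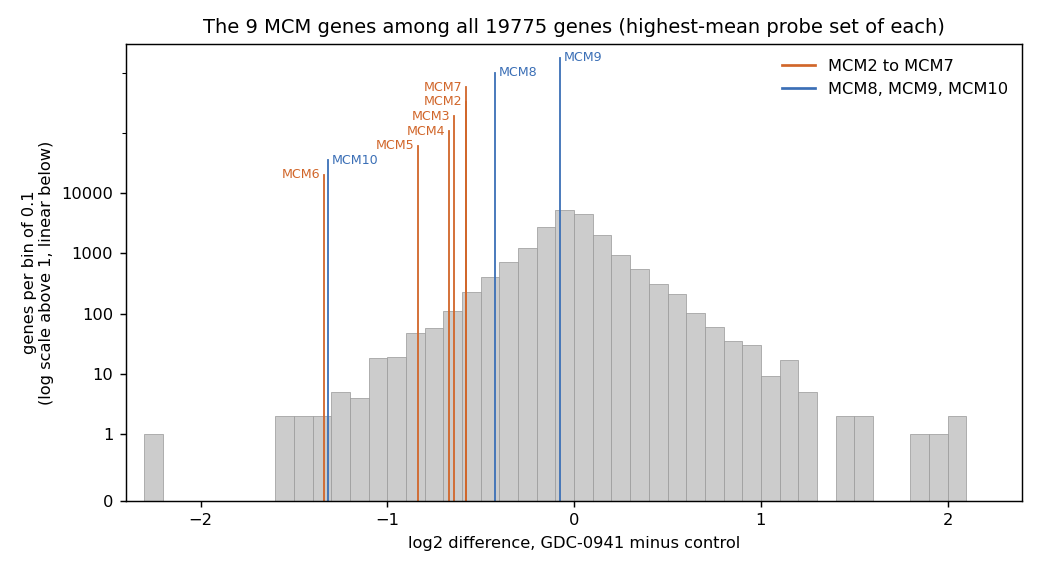
Number of genes per bin of the log2 difference, GDC-0941 minus control, on an axis that is logarithmic above 1, with lines at the 9 MCM genes. MCM6 and MCM10 stand in the left tail, MCM2 to MCM5 and MCM7 between -0.84 and -0.58, MCM8 at -0.42 and MCM9 near the centre.

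The genes whose profile over the 6 arrays was most like the mean profile of MCM2 to MCM7 were TARS1, a threonyl-tRNA synthetase, DCTPP1, which breaks down dCTP, CENPX, C11orf24 and FEN1, the flap endonuclease of lagging strand synthesis. Their root mean square difference from the MCM profile was 0.0164 to 0.0293 on the log2 scale (Pearson r of 0.998 to 0.999), and they fell by 0.72 to 0.82. Those most like MCM10 were CTPS1, which makes CTP, LRP8, a lipoprotein receptor, and CHAC2, a glutathione-degrading enzyme, at 0.0415 to 0.0734. The 6 arrays are 3 treated and 3 controls, so likeness here mostly means a fall of the same size.

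Among 10 genes that load the MCM2-7 ring, limit its loading or bind it, 6 were called lower and 1 higher. The shares over all genes were 13.6% and 10.5%. CDC6, the ATPase that helps place the ring on origins, fell most, from 9.99, 9.94 and 10.02 on the controls to 8.66, 8.49 and 8.47. Its difference was -1.45 ± 0.07 (SE; adjusted p = 5.73e-07), close to those of MCM6 and MCM10. GMNN (geminin), which blocks CDT1 and so prevents loading, fell by 0.70, and MCMBP, which binds the MCM proteins, by 0.63 on the log2 scale. The origin recognition subunits were mixed: ORC1 (-0.44), ORC6 (-0.25) and ORC2 (-0.24) fell, ORC4 and ORC5 did not pass (0.08 and -0.15), and ORC3 rose by 0.31. ORC3 is the one member called higher, and its call was lost without control replicate 2. CDT1, the loader itself, was split between its probe sets, with -0.09 (adjusted p = 0.438) by the brighter one and -0.35 (adjusted p = 0.00412) by the other.

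Among 17 genes that activate the loaded ring or travel with it, 12 were called lower and none higher. Over all genes, 13.6% were called lower and 10.5% higher, and the median of the 17 was -0.37. The GINS subunits GINS2 and GINS1 fell by 0.89 and 0.84 on the log2 scale, and CDC7, the kinase that phosphorylates the ring, by 0.88. GINS2 went from 11.96, 11.93 and 12.05 on the controls to 11.22, 11.01 and 11.06. The falls of GINS2 and GINS1 lay within the range of the highest-mean probe sets of the ring, 0.58 to 1.34. CDC45, the other component of that helicase, fell by 0.49, while GINS4 and GINS3 fell by 0.60 and 0.37. DBF4, the activator of CDC7, differed by 0.02 ± 0.09 (SE; adjusted p = 0.900) and TIMELESS, of the fork protection complex, by less than 0.01 ± 0.07 (SE; adjusted p = 0.994), while its partner TIPIN fell by 0.62.

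Among 10 measured partners of MCM8-MCM9 in recombination, of 11 listed, 3 were called lower and none higher, and the median was -0.07. The shares over all genes were again 13.6% lower and 10.5% higher. XRCC3, RAD51C and RPA3 fell by 0.53, 0.37 and 0.22 on the log2 scale. HROB, which recruits MCM8-MCM9 to DNA, differed by -0.12 ± 0.07 (SE; adjusted p = 0.304), and the recombinase paralogs RAD51B, RAD51D and XRCC2 did not pass by their highest-mean probe sets. RAD51D had a second probe set that fell by 0.36 (adjusted p = 0.000944). In the centred values 1 of the 10 was lower and 2 were higher, while the loading list had 4 lower and 1 higher and the activation list 8 lower and none higher. Over all genes, 3.93% were called lower and 23.6% higher in those values.

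**Figure D4:**
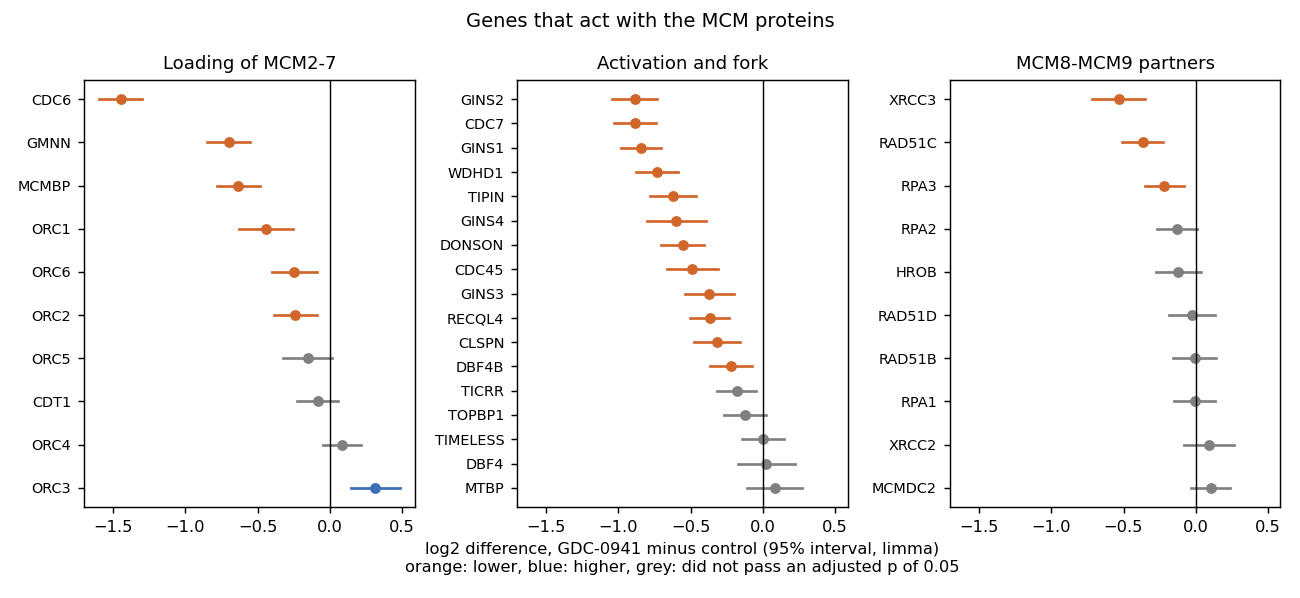
Log2 difference, GDC-0941 minus control, with its 95% interval for genes that load MCM2-7, genes that activate it or travel with it, and partners of MCM8-MCM9, each by its highest-mean probe set. Orange is lower, blue higher and grey did not pass. CDC6 lies lowest at -1.45, and the partners of MCM8-MCM9 lie between -0.53 and 0.10.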

How the data were processed

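RNA of 6 T47D samples was labelled by the manufacturer's standard protocol from 6 ug and hybridised to Affymetrix arrays, per the labels' protocols. The deposited log2 values were made by the authors with RMA, per the submitters' processing notes, which corrects background, normalizes probe values across arrays and summarises each probe set. The version of RMA and the chip definition used are not given in the sources used for this work. The scale was read from the values. RMA gives no detection call. Symbols came from the platform annotation, updated through RefSeq gene identifiers for 41037 of 41091 probe sets that name 1 gene.

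GDC-0941 was compared with control by limma 3.58.1 in R 4.3.3 (lmFit, eBayes, two-sided) on all 54613 probe sets, with Benjamini-Hochberg adjustment over all of them. A probe set was called at an adjusted p under 0.05. A gene outside the family was represented by its highest-mean probe set. The script was tested on simulated data. Arrays correlated at 0.997 to 0.998 within groups and at 0.992 to 0.994 between groups. Precision is limited by 3 arrays per group.

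The members and lists were chosen with earlier results of these data known. Genes were named by rule: all members, from each list the 3 called genes with the largest change, and the 5 and 3 genes most like MCM2-7 and MCM10. Other list genes were named after their values were seen. Alternatives tried were leaving out each array, a replicate block, other normalizations, variance models, filters and probe set rules. Figures were drawn with matplotlib 3.10.9.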

Additional observations from a re-analysis of the deposited data

How the results depend on the processing

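Of the 17 MCM probe sets called lower, 16 kept the call under each of the 17 alternatives in which they were measured, and the exception was MCM8 224320_s_at, whose call was lost with the arrays centred on hybridisation controls. That centring gave a median over the MCM probe sets of -0.47 in place of -0.64, 2 of the 8 probe sets of MCM8, MCM9 and MCM10 higher, and 1 lower and 2 higher among the partners of MCM8-MCM9. Over all probe sets, 47.3% of the calls were higher as deposited and 89.9% after it, when 23.6% of all probe sets were called higher and 2.65% lower. Leaving out 1 array gave medians of -0.67 to -0.60 and, in the loading list, 4 to 6 genes lower and 0 to 1 higher. Over all genes, 10.2% to 13.7% were called lower and 7.65% to 10.2% higher in those fits. At an adjusted p under 0.01, the loading list had 0 higher, where 6.73% of all genes were called higher. With array weights 1 partner of MCM8-MCM9 was higher, where 16.3% of all genes were called higher. By gene, with 1 probe set each or the mean of all, 6 of 6 genes of MCM2-7 and 2 of 3 of the others were called lower. Of all genes, 15.6% and 15.3% were called lower in these settings. With probe sets not marked as matching several transcripts alone, the median was -0.69. In that setting 7 of 7 probe sets of MCM2-7 and 1 of 4 of the others were called lower. MCM2, MCM7 and MCM8 had no such probe set, so they were not measured there. The 1 of 4 was a probe set of MCM10, and the rest were of MCM9. Called lower were also 3 of 4 genes of the loading list (0 higher), 5 of 9 of the activation list and 1 of 5 of the partners. Over all such probe sets, 7.32% were called lower and 7.61% higher. Of all genes read by such a probe set, 10.9% were called lower and 9.33% higher. The labels number replicates 1 to 3 in both groups without saying what a number shares. Same-numbered arrays deviated with correlations of -0.34, 0.14 and -0.03, so the numbers were not taken as pairs. The replicate block left 12 and 5 MCM probe sets lower, where 8.19% of all probe sets were called lower. The level of a probe set over background is not known without detection calls, which limits what the dim ones (MCM6 238977_at, MCM9 1553759_at) can show.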
